A study of Homo sapiens with 6 samples.

Results

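The genes described here are 46 interferon-induced effectors outside the OAS, IFIT, IFITM and ISG15-conjugation families, listed by name and matched by symbol to the 63241 Ensembl genes of the count tables. They were measured in MDA-MB-231, cells grown from a triple-negative breast tumour, by RNA sequencing of 3 libraries from cells treated for 24 h with 5 μM nitidine chloride (NCD, a plant alkaloid) and 3 libraries from cells given 0.1% DMSO as the vehicle. All 6 libraries came from the wild-type line, and nothing in the labels ties a library to a separate passage, so p-values measure the spread between these libraries. The cell line field names MDA-MB-231 for every library, while the description given for NCD 2, and that for NCD 3, names a different line.

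The RNAs of the line carried VIM at 3056 ± 100.1 CPM (counts per 1000000 of the TMM-scaled library; SD, n = 3) under DMSO and 2638 ± 132.8 CPM (SD, n = 3) under NCD. All 5 markers listed for the line were lower in every NCD library, as were 35.3% of all tested genes. The log2 fold changes were -0.21 for VIM, -0.83 for CAV1, -1.10 for AXL, -1.82 for CD44 and -2.61 for EGFR. The last 3 fell, as did 17.5% of all tested genes. ESR1 had 2 to 7 counts under DMSO and 0 under NCD, and PGR at most 3 counts in any library. The other luminal markers were higher in every NCD library, as were 37.2% of all tested genes. FOXA1 rose from 0.172 to 1.68 CPM, EPCAM had 2.71 and 4.01 CPM, and GATA3 6.12 and 7.31 CPM. EPCAM, at a log2 fold change of 0.57, was under the fold threshold, and GATA3 missed the adjusted p (0.073 from edgeR). The part of these marker changes in the results was not tested. Among the immune cell markers, NKG7 had 0 counts in every library, PTPRC and CD3E at most 1, CD14 from 2 to 22, and CD68 84.6 ± 5.34 CPM under DMSO and 91.0 ± 4.65 CPM under NCD (SD, n = 3 each). The summed level of the immune marker list was 81.5 to 90.9 CPM in the DMSO libraries and 86.6 to 95.9 CPM in the NCD libraries. Depth ranged from 18223594 to 19410833 counts under DMSO and from 18232169 to 21629653 under NCD.

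Type I and type III interferons signal through JAK kinases to a complex of STAT proteins with IRF9 that binds the interferon-stimulated response element in the promoters of its targets. IRF family members can also bind this element directly. The effectors encoded by those targets act at different steps of infection: some trap incoming particles, some degrade or edit nucleic acids, some modify host proteins, and some act at membranes or in cell death. Breast cancer cells carry the same gene programme, and its basal level differs between lines.

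Under NCD, 19 of the 46 listed genes rose and 1 fell, where a change means a Benjamini-Hochberg adjusted p below 0.05 in edgeR's quasi-likelihood test and an absolute log2 fold change above 1. Among all 15295 tested genes 13.5% rose and 17.5% fell by the same rule. The rises included MX1, MX2, ISG20, IFI6, RTP4, RSAD2, IFI27 and PARP10, and the fall was that of TRIM14. Another 11 members were higher and 3 lower at adjusted p below 0.05 without reaching the fold threshold, so that at any fold 30 were higher and 4 lower, against backgrounds of 35.3% and 34.1%. Every NCD library lay above every DMSO library for 30 members (background 37.2%) and below for 4 (background 35.3%).

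Of the 46 genes, 44 passed the filter on low counts, and TRIM22 and CMPK2 did not. Of the 44, 38 reached the filter level of 0.526 CPM in every DMSO library, and 14 of these rose and 1 fell, beside 10.1% and 19% of the 14027 genes at that level in every DMSO library. The other 6 (BST2, EPSTI1, IFI27, IFI44L, RSAD2 and RTP4) passed through their NCD values, and 5 of them rose, as a gene that passes in this way tends to. The median log2 fold change over the 44 tested members was 0.84, against 0.04 over all tested genes, with values from -1.34 for TRIM14 to 5.35 for RSAD2, the latter a fitted value that depends on the prior count. With library totals in place of TMM as the scale, the share of higher genes among all calls was 56.2% instead of 43.6%, the median of all genes was 0.23 and that of the members 1.03. In bulk RNA, fewer cells expressing a gene and less RNA per cell cannot be told apart, and levels are relative to the rest of the library.

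**Figure D1:**
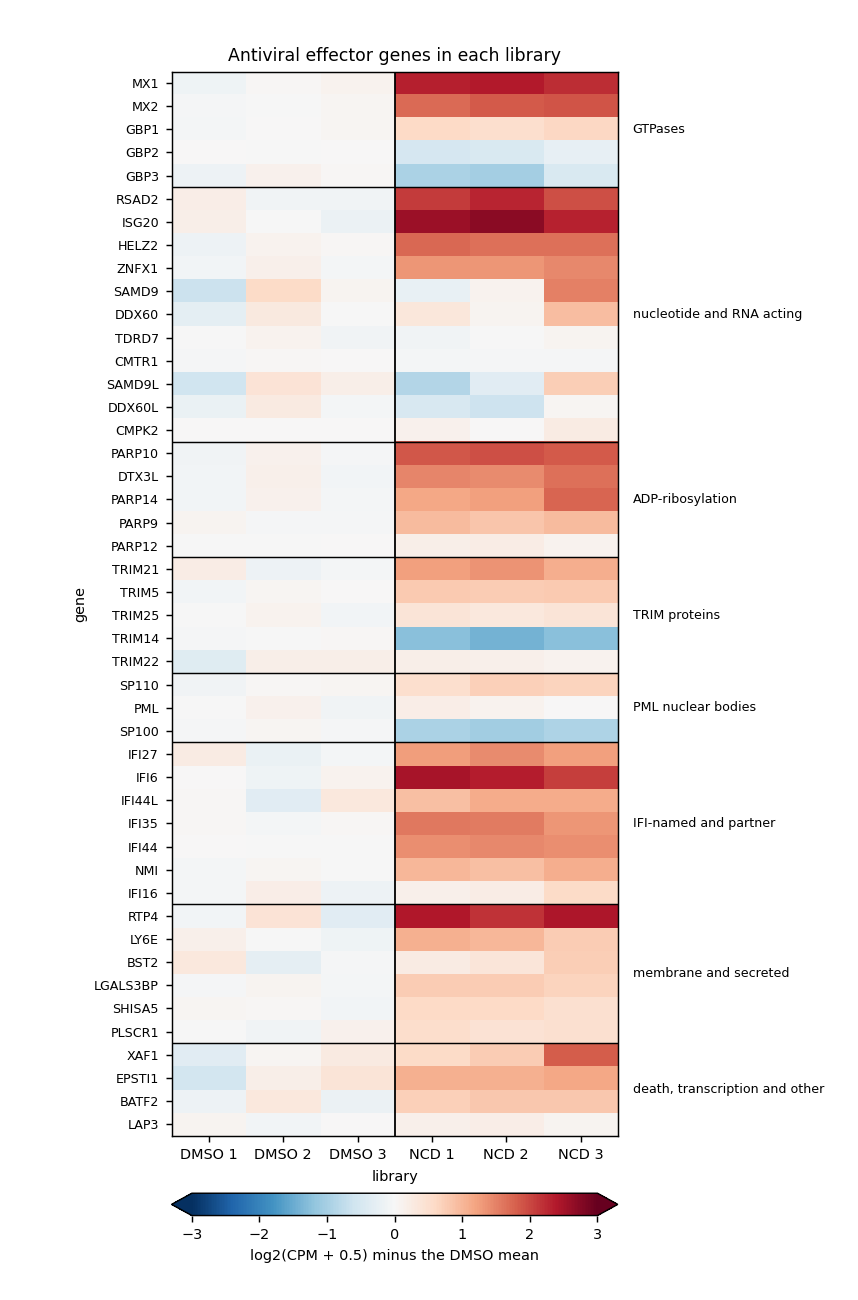
Heat map of the 46 genes (rows, grouped by role) in the 3 DMSO and 3 NCD libraries (columns); colour is log2(CPM + 0.5) minus the mean of the DMSO libraries, on a scale from -3 to 3. The NCD columns are red for most genes, blue for TRIM14, SP100, GBP3 and GBP2, and uneven across the 3 libraries for SAMD9, SAMD9L, DDX60, DDX60L and XAF1.

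**Figure D2:**
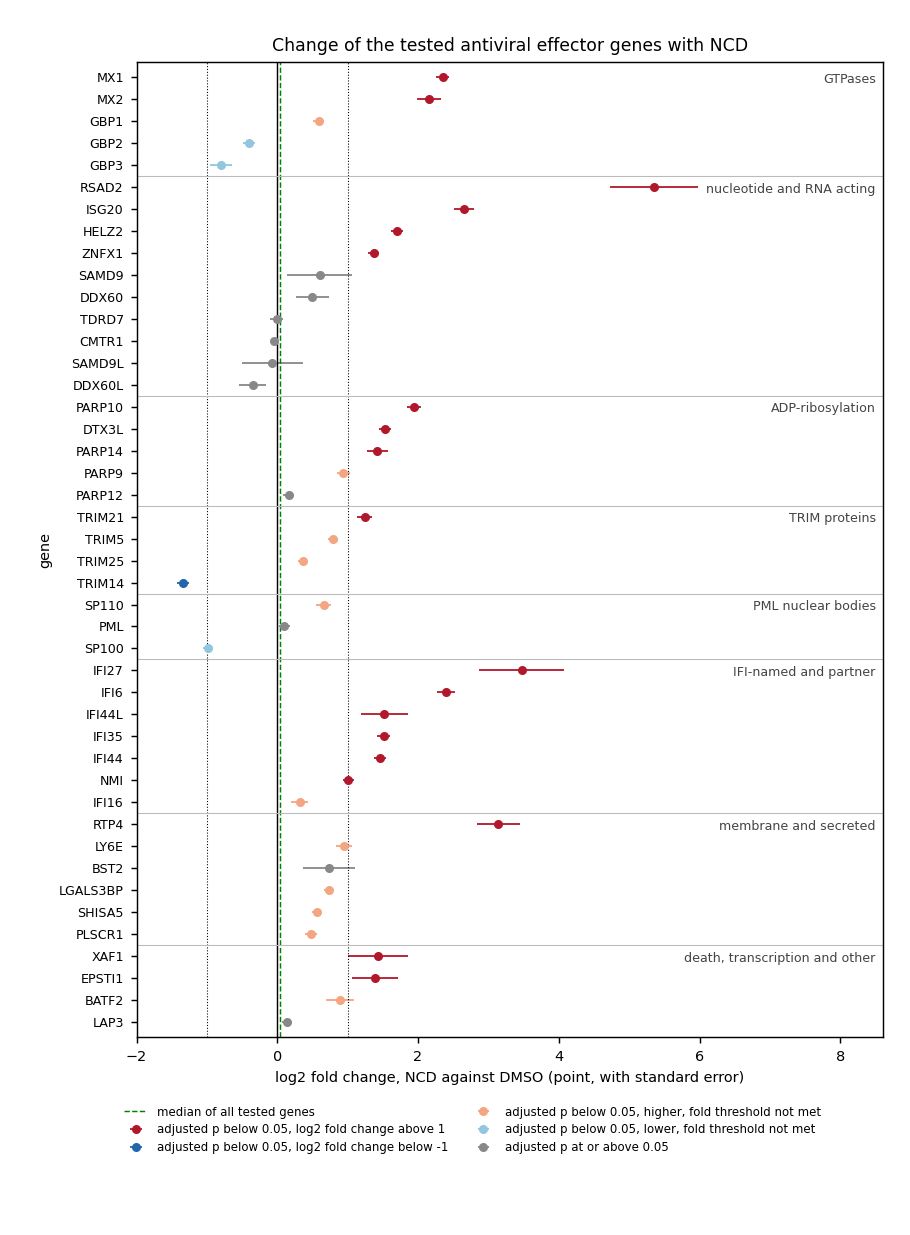
log2 fold change of the 44 tested genes with its standard error from edgeR, grouped by role; dotted lines mark the fold threshold and the dashed line the median of all tested genes, 0.04. Points lie from -1.34 (TRIM14) to 5.35 (RSAD2), with 19 past the threshold to the right and 1 to the left.

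The core of the interferon-stimulated response element, searched on both strands as GAAA, any 2 bases and GAAA again, from 250 bases before to 50 after each RefSeq start site (GRCh38.p14), was found for 27 of the 39 members with a promoter in the table used. It was found for 4.38% of the 27305 genes in that table. Of the 16 rising members with a promoter 13 held it, and of the 22 other tested members 14 held it. Among these 13 are EPSTI1, IFI27, IFI44L, RSAD2 and RTP4, which passed the low-count filter through their NCD values. The 2 shares are therefore not a test of the element. The stretches below show the element, with its matches in capitals, in the called members with the smallest p that hold it, in RSAD2 and RTP4, whose fold changes were among the largest, and in the GBP1 and GBP3 pair. Each is written in the direction of transcription.
MX1: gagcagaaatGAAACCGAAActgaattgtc
IFI44: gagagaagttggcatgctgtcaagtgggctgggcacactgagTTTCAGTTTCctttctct
ISG20: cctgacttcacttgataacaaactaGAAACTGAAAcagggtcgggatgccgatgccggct
IFI6: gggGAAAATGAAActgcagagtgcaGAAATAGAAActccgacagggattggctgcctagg
DTX3L: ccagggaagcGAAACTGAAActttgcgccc
TRIM14: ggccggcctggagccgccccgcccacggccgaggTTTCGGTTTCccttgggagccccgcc
RSAD2: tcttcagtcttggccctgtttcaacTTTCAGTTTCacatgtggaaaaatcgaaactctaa
RTP4: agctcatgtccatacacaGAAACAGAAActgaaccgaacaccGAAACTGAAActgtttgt
GBP1: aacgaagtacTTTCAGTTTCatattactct
GBP3: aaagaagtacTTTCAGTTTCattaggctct

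These stretches lie at chr21:41420559-41420588 (plus strand, MX1), chr1:78649729-78649788 (plus, IFI44), chr15:88638922-88638981 (plus, ISG20), chr1:27672251-27672310 (minus, IFI6) and chr3:122564322-122564351 (plus, DTX3L). Those of TRIM14, RSAD2, RTP4, GBP1 and GBP3 lie at chr9:98119223-98119282 (minus), chr2:6877607-6877666 (plus), chr3:187368325-187368384 (plus), chr1:89065316-89065345 (minus) and chr1:89022845-89022874 (minus). The match nearest to the start site began 18 bases before it for IFI44 and for RTP4, 69 before for ISG20, 93 before for IFI6, 26 before for TRIM14 and 145 before for RSAD2. RSAD2 has 2 RefSeq start sites, and this match belongs to the downstream one, while the window of the start near CMPK2 held none. MX1 has 3 start sites, of which 2 held a match, and the one printed is at the most upstream. In MX1 it began 11 bases after the start site. The same 10 bases that begin 6 bases before the start of DTX3L begin 41 bases before the start of PARP9 when read on the opposite strand. A match is a description of these letters and not a measured binding site. The shorter core of the gamma-activated sequence, TTCNNNGAA, was found for 11 of the 39 members and for 9.38% of all genes in the table. Of the tested genes that are no members, 15% of the 412 with the longer motif rose and 12.1% of the 10625 without it.

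**Figure D3:**
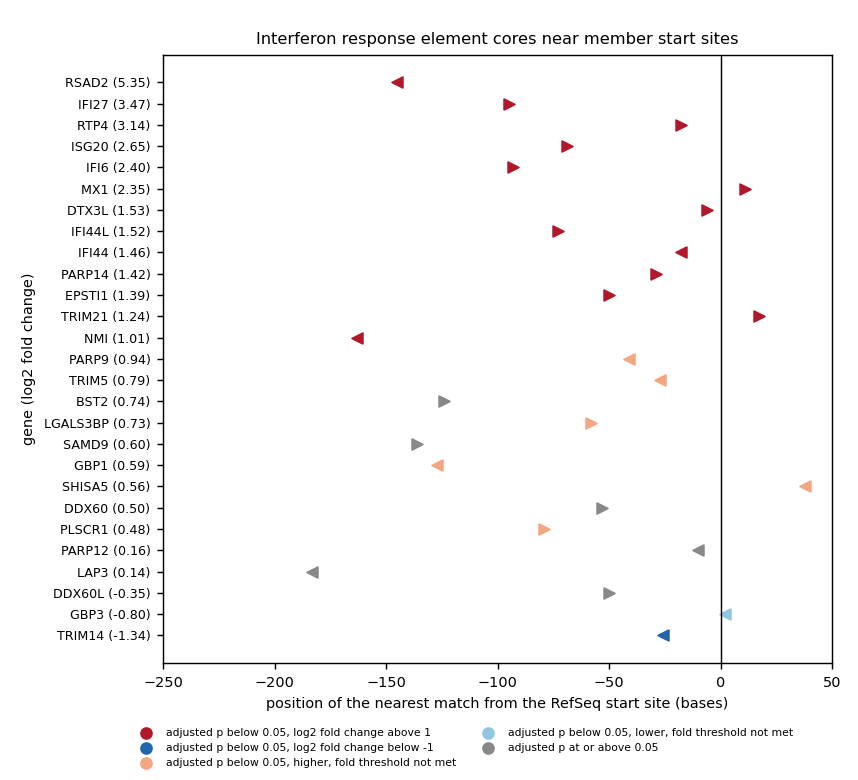
Position of the response element match nearest to a RefSeq start site (horizontal axis, in bases, 0 at the start) for the 27 members that hold it, ordered by log2 fold change, which stands beside each name; arrowheads point right for a match on the transcribed direction and left for the opposite strand. Genes with the element run from RSAD2 at 5.35 to TRIM14 at -1.34, and most matches lie before the start site.

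The dynamin-like GTPases rose, and the guanylate-binding proteins divided. MX1 (ENSG00000157601; chromosome 21, 41420304 to 41459214, plus strand, GENCODE release 29), which blocks influenza and other viruses, had 168, 202 and 218 counts under DMSO and reached 1337, 1151 and 1137 under NCD. The lowest NCD value, 53.0 CPM, was well above the highest DMSO value, 11.9 CPM. The mean was 11.2 ± 0.94 CPM under DMSO and 57.0 ± 3.49 CPM under NCD (SD, n = 3 each), a log2 fold change of 2.35 (standard error, SE, 0.09; edgeR adjusted p = 7.17e-08). MX2 (ENSG00000183486; chromosome 21, 41361943 to 41409390, plus strand), its neighbour, which restricts HIV-1, had 20, 22 and 24 counts under DMSO and 119, 111 and 129 under NCD. The groups did not overlap, and the log2 fold change was 2.16 (SE 0.17, edgeR adjusted p = 4.18e-06). The DMSO level of MX2 was 0.0962 CPM per kb of exon and that of MX1 1.30 CPM per kb, so that the less abundant paralog changed by nearly the same fold.

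GBP1, GBP2 and GBP3 encode GTPases that coat pathogens and their vacuoles, and they lie in 1 cluster on chromosome 1. GBP1 had 21.5, 22.7 and 23.3 CPM under DMSO and 34.4, 32.0 and 34.9 CPM under NCD, a log2 fold change of 0.59 (edgeR adjusted p = 0.000127), under the fold threshold. GBP3 had 37.9, 45.8 and 43.0 CPM under DMSO and 21.7, 20.5 and 30.4 CPM under NCD, a log2 fold change of -0.80 (edgeR adjusted p = 0.00105). GBP2 had a log2 fold change of -0.40 (edgeR adjusted p = 0.0028), and with library totals -0.20 (edgeR adjusted p = 0.0863), which missed the threshold. In each of the 3 genes the groups did not overlap. Of all tested genes 37.2% had every NCD library above the DMSO libraries and 35.3% had every one below. The start sites of GBP1 and GBP3 are 42.5 kb apart, and the stretches of 30 bases printed for them are identical at 25 positions. In GBP1 the match began 127 bases before the RefSeq start, and in GBP3 2 bases after it. Of all 75-base windows of their annotated transcripts, 3.79% in GBP1, 8.94% in GBP2 and 1.25% in GBP3 also occur in another gene, mostly GBP1P1, GBP7 or each other, so part of their reads could be assigned either way. Without NCD replicate 3 the log2 fold change of GBP3 was -1.02, past the fold threshold.

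Among the members that act on nucleotides and RNA, 4 of 11 rose, 6 did not pass the adjusted p, and CMPK2 was not tested. The share that rose over all tested genes was 13.5%. RSAD2, which is among the 4, passed the low-count filter through its NCD values. HELZ2 (ENSG00000130589; chromosome 20, 63558086 to 63574239, minus strand), a helicase and nuclear receptor coactivator, had 243, 308 and 303 counts under DMSO and 1239, 1006 and 1109 under NCD. The log2 fold change was 1.70 (SE 0.08, edgeR adjusted p = 2.66e-07). ISG20 (ENSG00000172183; chromosome 15, 88636153 to 88656483, plus strand), an exonuclease that degrades single-stranded RNA, had 94, 86 and 79 counts under DMSO and 720, 675 and 569 under NCD. The mean was 4.95 ± 0.672 CPM under DMSO and 31.0 ± 4.22 CPM under NCD (SD, n = 3 each), with a log2 fold change of 2.65 (SE 0.14, edgeR adjusted p = 4.32e-07). Among the members that reached the filter level in every DMSO library this was the largest fold change.

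ZNFX1 (ENSG00000124201; chromosome 20, 49237946 to 49278426, minus strand), a helicase that senses double-stranded RNA at mitochondria, had 65.7, 77.9 and 66.9 CPM under DMSO and 176.9, 176.7 and 190.9 CPM under NCD. The log2 fold change was 1.37 (SE 0.08, edgeR adjusted p = 6.18e-07). ZNFX1 overlaps DDX27 and ZFAS1 on the opposite strand, which had up to 4606 and 5503 counts per library, and whether the counting used strand is not given in the sources used here. Reads from the shared bases cannot then be told apart.

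RSAD2 encodes viperin, a radical SAM enzyme that makes a chain-terminating nucleotide from CTP, and CMPK2 encodes the mitochondrial nucleotide kinase that feeds it. The GENCODE start sites of these divergent genes are 829 bases apart, and the stretch printed for RSAD2 lies further downstream. RSAD2 had 2, 0 and 0 counts under DMSO and 41, 41 and 33 under NCD. The ratio of NCD to DMSO was 47.4, with an exact 95% counting interval of 12.8 to 396.3, and the edgeR adjusted p was 5.32e-05. CMPK2 was at 0 counts throughout the DMSO group and at 1, 0 and 2 in the NCD libraries, with an exact 95% lower limit of 0.341 for the ratio, and no difference could be detected at these counts. The summed counts under NCD were 115 for RSAD2 and 3 for CMPK2.

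DDX60 and DDX60L, a pair of putative helicases on chromosome 4, and SAMD9 and SAMD9L, cytoplasmic antiviral proteins that restrict poxviruses and slow translation, did not pass the adjusted p. SAMD9 had 7.11, 17.1 and 12.0 CPM under DMSO and 9.74, 12.3 and 33.1 CPM under NCD. SAMD9L had 3.44, 7.47 and 6.25 CPM under DMSO and 2.75, 4.19 and 9.42 CPM under NCD. In both genes DMSO replicate 1 was the lowest of its group, NCD replicate 3 the highest of all libraries, and the groups overlapped. The log2 fold change was 0.60 (SE 0.46, adjusted p = 0.27) for SAMD9 and -0.07 (SE 0.43, adjusted p = 0.888) for SAMD9L, both from edgeR. Without NCD replicate 3 these were -0.16 and -0.75. DDX60 had 4.94, 7.69 and 6.08 CPM under DMSO and 7.86, 6.57 and 12.1 CPM under NCD (log2 fold change 0.50, edgeR adjusted p = 0.0957), and DDX60L had 18.4, 25.7 and 20.4 CPM under DMSO and 15.0, 13.6 and 22.2 CPM under NCD (log2 fold change -0.35, edgeR adjusted p = 0.141). PALLD overlaps DDX60L on the opposite strand, with up to 1471 counts per library. In DDX60 and DDX60L too, NCD replicate 3 was the highest of the NCD libraries. Without NCD replicate 3 the log2 fold change of DDX60 was 0.20 (and 0.67 without NCD replicate 2, with an edgeR adjusted p of 0.0349), and that of DDX60L was -0.61 with an edgeR adjusted p of 0.00388, past the threshold. CMTR1, which methylates the mRNA cap, and TDRD7, a Tudor domain protein of RNA granules, had log2 fold changes of -0.05 and -0.01 with adjusted p = 0.459 and 0.916 from edgeR.

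The genes of the ADP-ribosylation group were higher in every NCD library than in any DMSO library, and 3 of 5 rose. Among all tested genes 37.2% were higher in every NCD library and 13.5% rose. PARP10 (ENSG00000178685; chromosome 8, 143977153 to 144012772, minus strand), a mono-ADP-ribosyltransferase, had 108, 137 and 124 counts under DMSO and 609, 541 and 562 under NCD. Its log2 fold change was 1.94 (SE 0.10, edgeR adjusted p = 3.15e-07). PARP10 overlaps GRINA on the opposite strand, which had 737 to 801 counts under DMSO and 2121 to 2605 under NCD, and the share of these reads in the value of PARP10 was not tested. DTX3L (ENSG00000163840; chromosome 3, 122564238 to 122575203, plus strand), a ubiquitin ligase that works as a dimer with PARP9, had 36, 42.0 and 35.8 CPM under DMSO and 105.8, 102.3 and 120.9 CPM under NCD. Its log2 fold change was 1.53 (SE 0.09, edgeR adjusted p = 8.61e-07).

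The start of PARP9 lies 339 bases from that of DTX3L on the opposite strand, and the genes overlap. DTX3L had up to 2593 counts per library, and the part of these reads in the value of PARP9 was not tested. PARP9 had 12.8, 11.7 and 11.7 CPM under DMSO and 23.6, 22 and 23.7 CPM under NCD. This log2 fold change of 0.94 (edgeR adjusted p = 1.43e-05) was just under the fold threshold, and with library totals it was 1.14. PARP14 (ENSG00000173193; chromosome 3, 122680618 to 122730840, plus strand), an ADP-ribosyltransferase whose start is 116.0 kb from that of PARP9, had 479, 590 and 539 counts under DMSO and 1586, 1398 and 2214 under NCD. NCD replicate 3 stood above the other two, and the log2 fold change was 1.42 (SE 0.15, edgeR adjusted p = 3.22e-05), or 1.19 without that library. PARP12, which inhibits several RNA viruses, had 22.5, 22.5 and 22.6 CPM under DMSO and 25.5, 26.2 and 24.1 CPM under NCD, a log2 fold change of 0.16 (edgeR adjusted p = 0.0791). The groups of PARP12 did not overlap, but the difference was small.

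Most TRIM proteins are ubiquitin ligases that recognise viral components or drive sensing, and the genes listed here moved in both directions. TRIM21 (ENSG00000132109; chromosome 11, 4384897 to 4393696, minus strand), a cytosolic antibody receptor, had 348, 287 and 313 counts under DMSO and 982, 900 and 835 under NCD. The log2 fold change was 1.24 (SE 0.11, edgeR adjusted p = 1.2e-05). TRIM14 (ENSG00000106785; chromosome 9, 98069275 to 98119212, minus strand), an adaptor at the mitochondrial signalling protein MAVS, had 616, 670 and 707 counts under DMSO and 359, 267 and 332 under NCD. Means were 37.9 ± 0.816 CPM under DMSO and 15.0 ± 1.03 CPM under NCD (SD, n = 3 each), a log2 fold change of -1.34 (SE 0.08, edgeR adjusted p = 8.9e-07). Every NCD value was below every DMSO value, and the window of TRIM14 held the element, as did those of 13 of the 16 rising members with a promoter, but not those of HELZ2, IFI35 and XAF1. TRIM14 overlaps NANS on the opposite strand, which had 1217 to 1532 counts under DMSO and 2307 to 2953 under NCD, and the part of these reads was not tested. TRIM5, which recognises retroviral capsids, and TRIM25, which ubiquitinates RIG-I, had log2 fold changes of 0.79 (edgeR adjusted p = 1.38e-05) and 0.36 (edgeR adjusted p = 0.000864), with no overlap between groups. TRIM22 lies inside the GENCODE span of TRIM5, on the opposite strand. It had 0, 4 and 4 counts under DMSO and 5, 4 and 4 under NCD, so that the ratio was 1.34 (exact 95% counting limits 0.515 and 3.73).

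PML nuclear bodies are protein assemblies that silence incoming viral genomes. None of the 3 genes listed for them passed the fold threshold. PML, the scaffold, had 36.5, 40.3 and 34.6 CPM under DMSO and 42.3, 39.7 and 37.6 CPM under NCD, with overlapping groups (log2 fold change 0.10, edgeR adjusted p = 0.297). SP100, a body component, had 79.9, 84.6 and 80.1 CPM under DMSO and 42.1, 39.3 and 42.8 CPM under NCD, a log2 fold change of -0.98 (SE 0.07, edgeR adjusted p = 1.77e-06). This change was just under the threshold and was past it, at -1.01 to -1.02, in 4 of the 6 fits that each left out a library. SP110, its relative 190.2 kb away by start site, had a log2 fold change of 0.66 (edgeR adjusted p = 0.000643), the opposite sign. SP110 overlaps SP140 on the opposite strand, which had up to 177.2 counts per library.

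In the IFI-named group with NMI, 6 of 7 genes rose, all but IFI16, beside 13.5% of all tested genes. IFI27 and IFI44L, which are among the 6, passed the low-count filter through their NCD values. IFI44 (ENSG00000137965; chromosome 1, 78649796 to 78664078, plus strand), a cytoplasmic protein of little known function, had 12.1, 12.0 and 12.0 CPM under DMSO and 32.5, 33.7 and 32.7 CPM under NCD. The replicates of each group were nearly equal, and the log2 fold change was 1.46 (SE 0.08, edgeR adjusted p = 3.48e-07). IFI44L, its paralog 29.9 kb away by start site, had 10, 6 and 15 counts under DMSO and 34, 35 and 39 under NCD. Its log2 fold change of 1.52 (SE 0.33, edgeR adjusted p = 0.00257) was close to that of IFI44, with a larger error at its low counts.

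IFI6 (ENSG00000126709; chromosome 1, 27666061 to 27672218, minus strand), an inhibitor of flavivirus replication and of apoptosis, had 97, 93 and 113 counts under DMSO and 779, 611 and 551 under NCD. Means were 5.77 ± 0.471 CPM under DMSO and 30.4 ± 4.29 CPM under NCD (SD, n = 3 each), a log2 fold change of 2.40 (SE 0.13, edgeR adjusted p = 5.12e-07). IFI35 (ENSG00000068079; chromosome 17, 43006725 to 43014456, plus strand) forms a complex with NMI. It had 287, 284 and 315 counts under DMSO and 1171, 976 and 917 under NCD, a log2 fold change of 1.51 (SE 0.09, edgeR adjusted p = 9.75e-07). NMI had 21.3, 23.3 and 22 CPM under DMSO and 44.4, 41.9 and 48.1 CPM under NCD, and its log2 fold change of 1.01 (edgeR adjusted p = 5.29e-06) lay on the fold threshold, with 0.94 as the lowest value under the alternatives.

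IFI27, a small membrane protein, had 3, 0 and 1 counts under DMSO and 20, 20 and 18 under NCD. The ratio was 12.0 with an exact 95% counting interval of 4.43 to 45.4, and the edgeR adjusted p was 0.000699. IFI16, a nuclear DNA sensor, had 102.8, 122.6 and 96.9 CPM under DMSO and 118.5, 124.9 and 158.1 CPM under NCD. Its groups overlapped, and the log2 fold change of 0.32 (edgeR adjusted p = 0.0447) was 0.16 without NCD replicate 3. The adjusted p of IFI16 in edgeR was 0.152 without that library, 0.14 without DMSO replicate 1, 0.208 without DMSO replicate 3 and 0.0709 with the replicate numbers as a block, so that it missed the threshold in each.

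Of the 6 members at membranes or in the medium, RTP4 rose and 4 others were higher under the fold threshold. By the same rules 13.5% of all tested genes rose and 35.3% were higher at any fold. The low-count filter was passed by RTP4 through its NCD values. RTP4 (ENSG00000136514; chromosome 3, 187368332 to 187372076, plus strand), a chaperone of cell surface receptors, had 7, 14 and 5 counts under DMSO and 106, 75 and 102 under NCD. Its log2 fold change was 3.14 (SE 0.31, edgeR adjusted p = 1.82e-05), and 2 separate matches to the element lie within the stretch printed for it. LGALS3BP, a secreted glycoprotein, was the most abundant member per length in both groups, at 53.5 CPM per kb of exon under DMSO and 88.5 under NCD. It had 188.1, 203.5 and 183.3 CPM under DMSO and 326.0, 323.0 and 302.5 CPM under NCD, a log2 fold change of 0.73 (edgeR adjusted p = 8.23e-06). LY6E, a GPI-anchored protein that blocks coronavirus fusion, had 26.4, 23.4 and 21.7 CPM under DMSO and 50.2, 47.7 and 40.6 CPM under NCD. Its log2 fold change of 0.95 (edgeR adjusted p = 4.43e-05) passed the fold threshold with library totals (1.15) and without DMSO replicate 1 or NCD replicate 3. SHISA5, a protein of the endoplasmic reticulum, and PLSCR1, a phospholipid scramblase that blocks viral entry, had log2 fold changes of 0.56 and 0.48 (adjusted p = 5.39e-05 and 0.000458 from edgeR). BST2, or tetherin, which holds budding virions at the membrane, had 14, 7 and 10 counts under DMSO and 18, 17 and 28 under NCD (log2 fold change 0.74, edgeR adjusted p = 0.106), and its CPM values overlapped between the groups.

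In the last group XAF1 and EPSTI1 rose, or 2 of 4 genes, beside 13.5% of all tested genes. EPSTI1 passed the low-count filter through its NCD values. XAF1 (ENSG00000132530; chromosome 17, 6755447 to 6775647, plus strand), which binds the apoptosis inhibitor XIAP, had 13, 21 and 26 counts under DMSO and 43, 43 and 110 under NCD. NCD replicate 3 was far above the other two, and the log2 fold change was 1.43 (SE 0.43, edgeR adjusted p = 0.0151). Without that library it was 0.83, under the fold threshold, and without DMSO replicate 1 it was 1.20 with an adjusted p of 0.0539 from edgeR. PRAL, on the opposite strand, had up to 36.9 counts per library. EPSTI1 (ENSG00000133106; chromosome 13, 42886388 to 42992271, minus strand), a gene named for its induction in breast epithelium by stroma, had 7, 18 and 23 counts under DMSO and 53, 45 and 54 under NCD. Its log2 fold change was 1.39 (SE 0.33, edgeR adjusted p = 0.00439). BATF2, a leucine zipper transcription factor, had 31, 49 and 33 counts under DMSO and 86, 79 and 88 under NCD (log2 fold change 0.89, edgeR adjusted p = 0.00396). LAP3, a leucine aminopeptidase, had 142.3, 125.9 and 134.4 CPM under DMSO and 149.6, 153.3 and 141.4 CPM under NCD, with overlapping groups (log2 fold change 0.14, edgeR adjusted p = 0.0797).

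The NCD libraries did not raise all members alike. NCD replicate 3 was the highest NCD library for 24 of the 44 tested members, and for 41.6% of all tested genes. It was above 1.25 times the mean of NCD replicates 1 and 2 for 9 members, or 20.5%, which is near the 18.3% of all tested genes. These 9 were SAMD9, at 3.01 times that mean, SAMD9L at 2.71, XAF1 at 2.50, DDX60 at 1.67, BST2 at 1.57, DDX60L at 1.56, PARP14 at 1.46, GBP3 at 1.44 and IFI16 at 1.30. Below 0.8 times that mean were 3 members, or 6.82%, beside 8.25% of all tested genes, namely IFI6 at 0.783, RSAD2 at 0.786 and ISG20 at 0.799. Both shares are close to those of all genes. Over all members the summed level was 1526.8 to 1647.5 CPM in the DMSO libraries and 2320.5 to 2410.7 CPM in the NCD libraries.

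**Figure D4:**
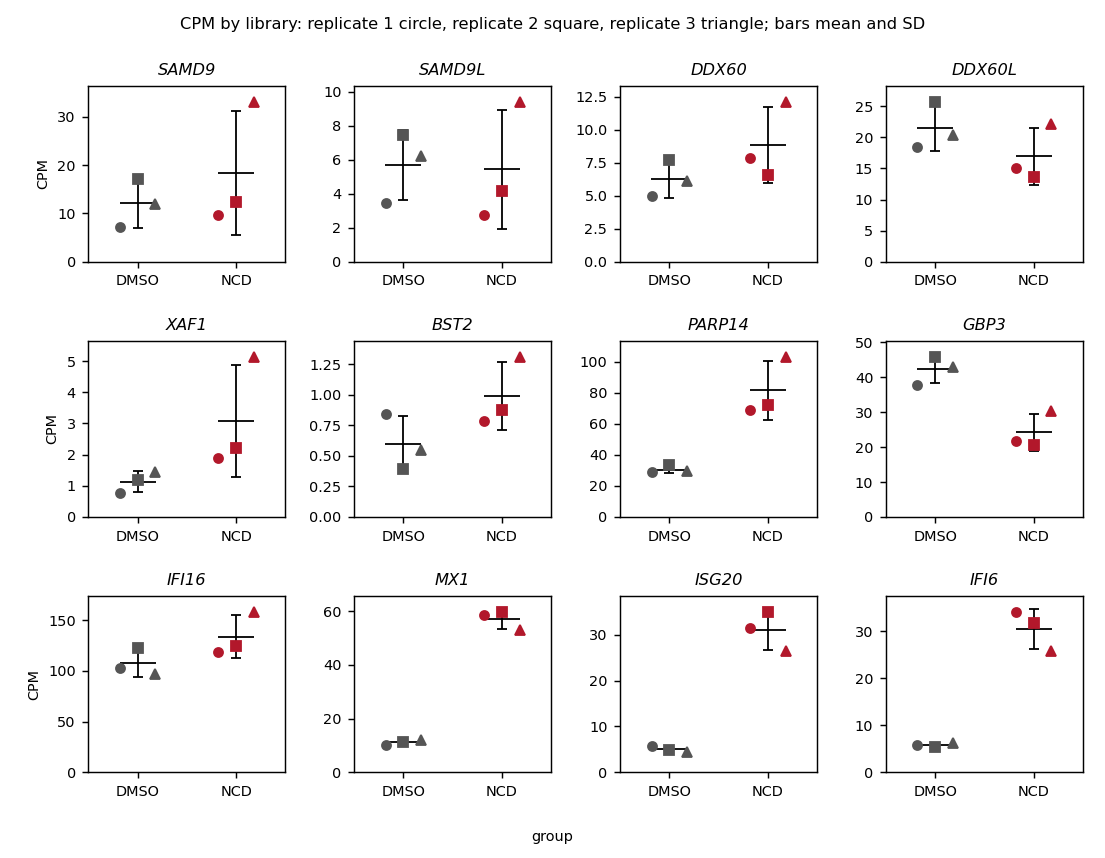
CPM (vertical axes, linear from 0) of 12 members in the 3 DMSO libraries (grey) and the 3 NCD libraries (red), with the replicate shown by the symbol and the mean and SD by bars. NCD replicate 3 (triangle) is the highest NCD library in the first 9 panels and the lowest in those of MX1, ISG20 and IFI6.

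Neighbouring members moved together in some pairs and apart in others. MX1 and MX2 both rose, as did IFI44 and IFI44L, the last of which passed the low-count filter through its NCD values. PARP9, DTX3L and PARP14 were all higher in every NCD library. Of all tested genes 13.5% rose and 37.2% were higher in every NCD library, and whether neighbours changed jointly was not tested. SP100 and SP110 had opposite signs, as had GBP1 against GBP2 and GBP3. RSAD2 rose where CMPK2 had at most 2 counts per library. Apart from the GBP genes, sharing of 75-base transcript windows reached at most 0.15% in these pairs, as measured for DDX60 with DDX60L.

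Across all genes of this comparison the log2 fold change was lower for genes with a long span, and the members followed this in part. Of the 17 members up to 20 kb 9 rose and 0 fell, with a median of 1.01. Among all tested genes of that span 21% rose and 4.9% fell, with a median of 0.37. Of the 18 members from 20 to 50 kb 8 rose and 1 fell, with a median of 1.15 over the 16 tested. Of all tested genes in this class 13.8% rose and 4.95% fell, with a median of 0.18. Of the 11 members above 50 kb 2 rose (PARP14 and EPSTI1) and 0 fell, with a median of 0.36. In this class 4.03% of all tested genes rose and 42.2% fell, with a median of -0.78. Spearman's rho of span and log2 fold change was -0.439 over the 44 tested members and -0.503 over 14692 genes. These describe genes measured in the same 6 libraries, which are not independent points.

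**Figure D5:**
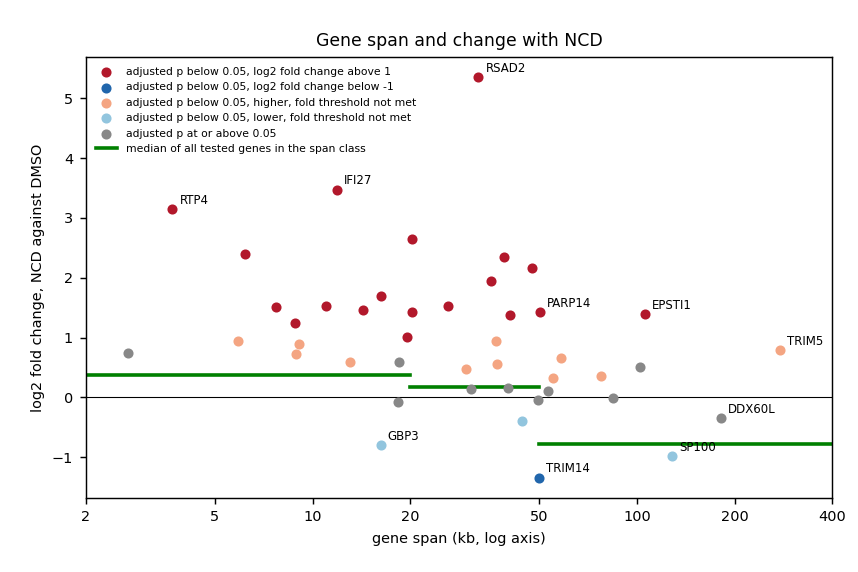
log2 fold change with NCD (vertical axis) against gene span in kb (horizontal axis, logarithmic) for the 44 tested members, coloured by call, with green lines at the median of all tested genes up to 20 kb (0.37), from 20 to 50 kb (0.18) and above 50 kb (-0.78). Most members lie above the line of their span class, and TRIM14, SP100, GBP3, GBP2, SAMD9L, CMTR1, LAP3 and PARP12 lie below it.

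The other genes of the pathway were read from lists of the OAS, IFIT, IFITM and ISG15 families, of signalling components and of nucleic acid sensing. Over all tested genes 13.5% rose and 17.5% fell. Of the 17 family genes 12 rose and 0 fell, with IFIT2, IFIT1 and IFIT3 at the smallest p and log2 fold changes of 4.07, 2.51 and 2.84. Of the 18 signalling components 6 rose and 2 fell, or 33.3% and 11.1%, so that the share that fell was below that of all genes. The rises with the smallest p were those of the transcription factors IRF1 at 2.04, IRF7 at 2.49 and IRF9 at 1.42. STAT2 rose by 1.55 on the log2 scale, and the falls were those of JAK1 (-1.15) and JAK2 (-1.61). Of the 11 genes listed for nucleic acid sensing, which include adaptors such as STING1, 10 were tested. Of these, 5 rose and 0 fell, with STING1 at 1.91, IFIH1 at 1.83 and DHX58 at 2.61 among the rises. Of 9 interferon genes 7 had 0 counts in every library. IFNL1 had 0 counts in each DMSO library and 7, 10 and 6 in the NCD libraries, and IFNL3 0 in each DMSO library and 1, 4 and 0 in the NCD libraries.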

How the data were processed

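RNA of 3 DMSO and 3 NCD samples was sequenced on a NovaSeq X Plus system. The authors aligned reads with HISAT2 (GRCh38, per the submitters' processing notes) and deposited expected counts per Ensembl gene from RSEM, not normalized. The annotation release, tool versions and strandedness are not given in the sources used here. In each library 25 lines held stray text with no gene and were skipped. Symbols were found for 62666 of 63241 identifiers and for all 46 members. Coordinates, spans and exon lengths came from GENCODE release 29 (GRCh38), and promoters from RefSeq (GRCh38.p14, 39 of 46 members).

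Counts were rounded and tested with edgeR 4.0.16 in R 4.3.3 (filterByExpr, TMM, glmQLFit, glmQLFTest, Benjamini-Hochberg adjustment over 15295 genes), in code tested on simulated data. Standard errors were taken as the size of the log2 fold change over the root of its F statistic. CPM use TMM-scaled library sizes. Counting intervals are exact (Clopper-Pearson, 95%) and cover counting error only. Replicates of a group differed by more than sampling noise. Chi-square per degree of freedom was 4.42 to 16.86 between DMSO libraries. It was 2.09 between NCD replicates 1 and 2, and 15.85 and 14.15 between these and NCD replicate 3. Exact permutation tests of 3 against 3 libraries cannot go below p = 0.1 and were not used.

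The members and lists were chosen with earlier results of these data known. All members are accounted for, with full statistics for up to 3 rising members with the smallest p per role group and for any that fell. Alternatives were DESeq2 1.42.0, limma-voom (limma 3.58.1), library totals, DESeq2 size factors, other count filters, no fold threshold, a prior count of 2, a replicate block, and each library left out. Tables and figures used scipy 1.17.1, pandas 2.3.3, numpy 2.4.6 and matplotlib 3.10.9. Protein comparisons of paralogs were not made. Some genes of the pathway and marker lists are not reported here.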

Additional observations from a re-analysis of the deposited data

How the results depend on the processing

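The number of rising members was 18 to 20 in the fits that each left out 1 library, 22 with library totals, and 13 with the 10-count filter, which removes low members. Of the 20 members called, 18 kept their direction and call in every alternative in which they were tested. The exceptions were XAF1 (log2 fold change 0.83 without NCD replicate 3, 1.2 with adjusted p = 0.0539 from edgeR without DMSO replicate 1) and NMI, which moved between 0.94 and 1.21 and was under the threshold with DESeq2, its size factors, the 10-count filter, and without DMSO replicate 1, DMSO replicate 3, NCD replicate 1 or NCD replicate 3. Without a fold threshold, by construction, 30 members were higher and 4 lower, as were 11 and 4 of the signalling components. The falling members numbered 1 to 3 without 1 library: SP100 or GBP3 passed the threshold in some of these fits, with 3 without NCD replicate 3. Among members under the fold threshold, IFI16 (adjusted p 0.14, 0.208 and 0.152 from edgeR without DMSO replicate 1, DMSO replicate 3 or NCD replicate 3) and GBP2 (0.0863 with library totals) missed the adjusted p. BST2, CMTR1, DDX60, LAP3, PARP12 and PML passed the adjusted p, on the positive side, with library totals, and DDX60, DDX60L and SAMD9 passed it with no low-count filter. With library totals 1 signalling component fell instead of 2. The median log2 fold change of the members was 1.03 with library totals, which raise the median of all genes from 0.04 to 0.23, and 0.68 where every library had to hold 10 counts or more, which leaves 38 members. Without 1 library it ranged from 0.75 to 0.92.

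CMTR1, SAMD9L and TDRD7, which were near 0, changed sign in some alternatives. SAMD9, at 0.60 with all libraries, did so only without NCD replicate 3. With library totals SAMD9L was at 0.13, CMTR1 at 0.15 and TDRD7 at 0.19. Without 1 library SAMD9 ranged from -0.16 (without NCD replicate 3) to 0.93, SAMD9L from -0.75 to 0.23 and TDRD7 from -0.092 to 0.033. The cause was not tested, and none of these was past both thresholds. Leaving out DMSO replicate 1 moved RSAD2 to 8.17 and IFI27 to 4.73, both fitted against almost no DMSO counts, and EPSTI1 to 1.03. A prior count of 2 put RSAD2 at 3.76 and IFI27 at 2.5.

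Whether libraries with the same number were paired is not given in the labels. Their deviations from their group had correlations of 0.216, -0.185 and 0.023. With 3 libraries per group these values cannot decide it. With the replicate block 19 members rose and 1 fell, with a median of 0.85, and no member crossed the fold and p thresholds together, but IFI16 lost its adjusted p (0.0709 from edgeR). Depth limits TRIM22 and CMPK2, with at most 5 counts in any library.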
